A study of Macaca fascicularis with 6 samples.

Results

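The genes described here are 8 secreted acute-phase and stress proteins, *SERPINA1*, *SERPINA3*, *CHI3L1*, *CHI3L2*, *TF*, *CP*, *LCN2* and *C3*. They were chosen by their levels and shares of cells in these samples and by their difference between 2 classes of fibrous tissue cells, so those values describe the genes and support nothing. Of the 8 genes, 6 were listed in the deposited matrices of 14020 and 13950 genes. *LCN2*, which codes for the siderophore-binding lipocalin 2, and *C3*, the central component of complement, were not listed in either matrix and have no value here.

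Acute-phase proteins are best known as products of the liver, where interleukin-6, interleukin-1 and glucocorticoids raise their transcription during injury or infection. Many are also made outside the liver, and chondrocytes are known to secrete protease inhibitors and chitinase-like proteins, among them YKL-40, the product of *CHI3L1*, which is used as a marker of cartilage and joint disease. The inhibitors limit proteases that would otherwise break down matrix, and transferrin and ceruloplasmin carry and oxidize metal ions.

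Single cells of the cynomolgus monkey were read by TAS-Seq, a whole-transcriptome method on BD Rhapsody beads. The 5 samples were undifferentiated iPS cells (cyiPSC), cartilage organoids made from them (pre-transplant cyiPS-Cart), such organoids recovered from chondral defects of the knee 4 months after transplantation (post-transplant cyiPS-Cart), articular cartilage that was intact (cyAC), and fibrous tissue formed where chondral defects had been left empty (cyFT). The cyiPSC and pre-transplant library has the genotype label EGFP reporter gene, and the other libraries have the label wild type and an age of 3 to 4 years. For post-transplant cyiPS-Cart this is taken as the recipient's genotype, since the study describes allogeneic EGFP donor cells given without immunosuppression. The methods describe the EGFP cells as 1 iPS cell line with a homozygous MHC haplotype that the recipients did not match. The transplanted and the empty groups had 3 monkeys per time point and 2 sites of each monkey were combined, but how many monkeys a library holds and which cells came from which are not given in the sources used here, so each condition was taken as 1 sample. Conditions could thus not be tested against each other. The 95% intervals below are exact intervals that cover counting error only, for reads that are not independent molecules. Differences between samples of different libraries cannot be told apart from differences between libraries.

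The values rest on 2500 cyiPSC cells and 320 cells of each other sample, besides a larger set of 3527 pre-transplant cells, with median reads per cell of 27499.5 in cyFT to 143075 in cyiPSC. Chondrocyte markers summed to 34128 to 77018 reads per 1000000 reads of all listed genes (CPM) in the 4 tissue samples and to 77.2 CPM in cyiPSC, with 8 of 9 markers listed. Fibroblast markers summed to 398 CPM in cyiPSC, 9631 in cyAC and 25677 to 72712 in the others, and pluripotency markers to 2479 CPM in cyiPSC and 2.45 to 25.7 elsewhere. Libraries shared at most 4 cell barcodes.

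The background to read the gene levels against was the other cell types. Hepatocyte markers, of which 7 of 10 were listed with *ALB* among them, had 0 reads in post-transplant cyiPS-Cart, cyAC and cyFT, and summed to 0.789 CPM in cyiPSC and 0.892 in pre-transplant cells. Macrophage markers summed to 522 CPM in cyFT and to 4.18 to 24.5 elsewhere, and pan-immune markers to 203 CPM in cyFT and to 0.423 to 7.19 elsewhere. Neutrophil markers reached 47.2 CPM in cyAC and 1.08 to 2.62 CPM elsewhere. T cell markers summed to 13.6 to 33.9 CPM, endothelial markers to 1.13 to 17.7 and mural markers to 49.0 to 117, and red cell markers, of which only 2 of 6 were listed, had 0 reads in every sample but cyiPSC, where they summed to 0.270 CPM.

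*SERPINA1* codes for alpha-1-antitrypsin, the main inhibitor of neutrophil elastase. Its level was 2.46 CPM in cyiPSC, 2286 in pre-transplant cyiPS-Cart, 3446 in post-transplant cyiPS-Cart, 751 in cyAC and 1571 in cyFT. The percentage of cells holding 1 or more reads followed a similar order at 1.84% of cyiPSC, 90.6% of pre-transplant, 99.4% of post-transplant, 54.1% of cyAC and 56.9% of cyFT cells. It was therefore near uniform over post-transplant cells and held by little more than every other cell in both joint tissues. A related gene, *SERPINA2*, was also listed, at 1.30, 26.3, 27.3, 50.7 and 88.6 CPM in the same order of samples. How reads that match both genes were counted is not given in the sources used here, and how far this touches the *SERPINA1* values was not tested.

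*SERPINA3* codes for alpha-1-antichymotrypsin, which inhibits cathepsin G and chymase. Its level was 7.04 CPM in cyiPSC, 6219 in pre-transplant cyiPS-Cart, 855 in post-transplant cyiPS-Cart, 4645 in cyAC and 2797 in cyFT. Reads were held by 95.3% of pre-transplant, 90.3% of post-transplant, 98.4% of cyAC and 89.7% of cyFT cells, but by 1.40% of cyiPSC cells. The lowest nonzero count of this gene was 28 reads in the library of cyiPSC and pre-transplant cells and 1 read in the others, and at 10 or more reads the shares were 95.3, 81.2, 94.1, 37.5 and 1.40% in the same order. Post-transplant cyiPS-Cart was the lowest of the 4 tissues for this inhibitor and the highest for *SERPINA1*. Both genes lie on chromosome 7 in the RefSeq gene table of the monkey (assembly T2T-MFA8v1.1), in one run of 9 serpin A genes. That table was used for names and neighbours only, since the counts were made on another assembly.

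*CHI3L1*, the chitinase-like protein YKL-40 that binds chitin without cleaving it, stood at 4.91 CPM in cyiPSC, 1168 in pre-transplant cyiPS-Cart, 63.9 in post-transplant cyiPS-Cart, 380 in cyAC and 120 in cyFT. It was found in 75% of pre-transplant cells (69.9 to 79.6%) but in 4.06% of post-transplant cells (2.18 to 6.85%), which is 13 cells. In post-transplant cyiPS-Cart 5 cells held 80.8% of its reads, and in cyAC 5 cells held 49.3%, so the sums of these samples rest on few cells. *CHI3L2*, its relative YKL-39, was at 0.611 CPM in cyiPSC, 21.0 in pre-transplant, 15.3 in post-transplant, 353 in cyAC and 86.0 in cyFT. Its share of cells was highest in cyAC at 30.3%, against 14.4% in cyFT, 14.7% in post-transplant and 18.4% in pre-transplant cells.

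*TF* codes for transferrin, the iron carrier of plasma. It was the rarest of the 6 genes, with 0.154 CPM in cyiPSC, 1.41 in pre-transplant cyiPS-Cart, 0 in post-transplant cyiPS-Cart, 21.0 in cyAC and 9.38 in cyFT. Reads of *TF* were found in 0 of 320 post-transplant cells, which allows up to 0.938% of cells with a read (1.15% by the exact interval) and sets no limit on cells expressing the gene, while 9.06% of cyAC and 7.81% of cyFT cells had one. *CP* codes for ceruloplasmin, the copper-binding ferroxidase. It was at 0.830 CPM in cyiPSC, 3.94 in pre-transplant, 15.2 in post-transplant, 150 in cyAC and 49.9 in cyFT, and in 34.7% of cyAC and 20.6% of cyFT cells. *CHI3L2*, *TF* and *CP* thus shared an order with cyAC highest and cyFT next, which neither serpin had.

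**Figure D1:**
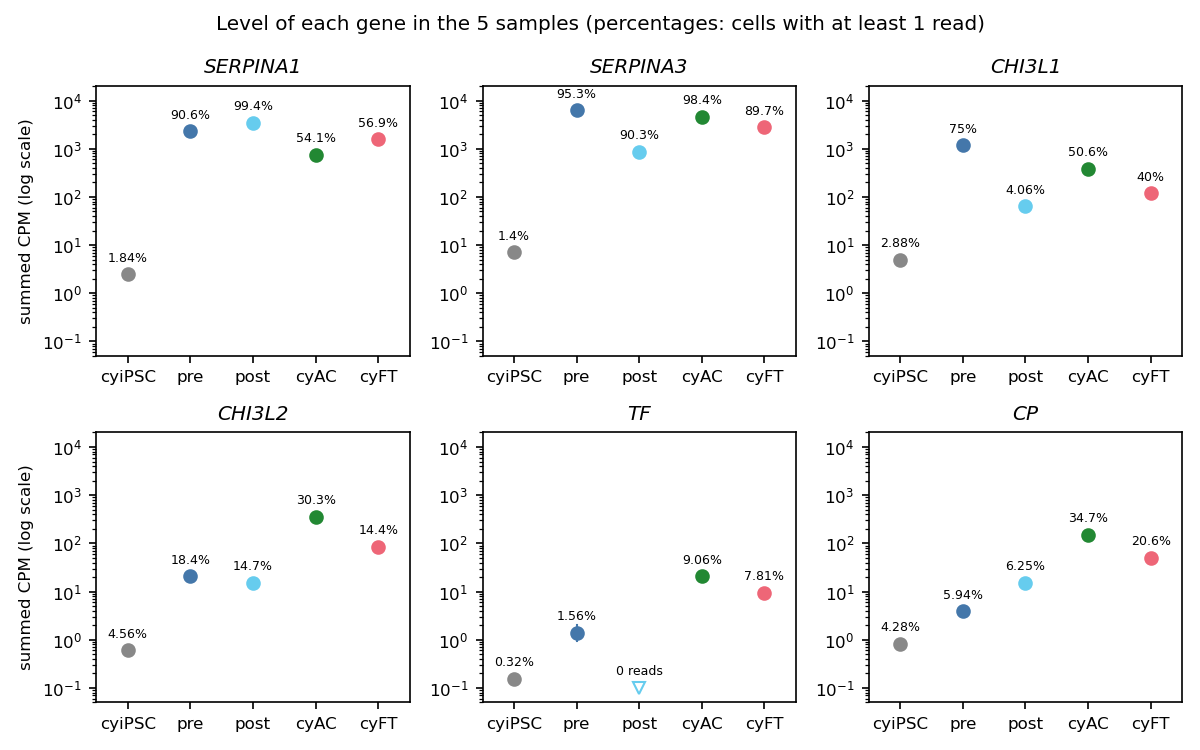
Summed CPM of the 6 listed genes in the 5 samples on a log axis, with 1 point per sample, exact Poisson intervals that are mostly smaller than the points, and the share of cells with a read above each point. *SERPINA1* was highest in post-transplant cyiPS-Cart at 3446 CPM, *SERPINA3* and *CHI3L1* were highest before transplantation at 6219 and 1168 CPM, and the open triangle marks the level of 3 reads where *TF* had 0 reads.

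Undifferentiated cells had the lowest level of every listed gene but *TF*. In cyiPSC 2172 of 2500 cells had no read of any of the 6 genes. Only 50 cyiPSC cells held *COL2A1* or *COL1A1* reads, and these held 57.1% of the *SERPINA1*, 75.3% of the *SERPINA3* and 64.0% of the *CHI3L1* reads of the sample. Without them the cyiPSC levels were 1.09, 1.80 and 1.83 CPM. The lowest nonzero counts of *SERPINA1* and *CHI3L1* in the library of cyiPSC and pre-transplant cells were both 10 reads, against 1 and 9 in the post-transplant library and 7 and 1 in that of cyAC and cyFT. The authors corrected the counts for diffused background before deposit, and its part in these values was not tested.

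Fibrous tissue held 2 classes of cells with unlike levels of these genes. Cells with *COL2A1* reads and no *COL1A1* reads (*COL2A1*-only) numbered 84 of 320, cells with the reverse (*COL1A1*-only) 170, cells with both 33 and cells with neither 33. Their chondrocyte markers summed to 68580 CPM in *COL2A1*-only and 6236 CPM in *COL1A1*-only cells, and fibroblast markers to 3503 and 89672 CPM. Median reads per cell were 47802.5 and 21830, so shares of cells are also given after each cell was thinned to 12191 reads, a depth that 84 of 84 and 144 of 170 cells reached.

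Both serpins were far higher in the *COL2A1*-only cells. *SERPINA1* stood at 3251 CPM there against 422 CPM in *COL1A1*-only cells, a ratio of 7.69 (7.33 to 8.08). The middle *COL2A1*-only cell had 2907 CPM of it and the middle *COL1A1*-only cell 0, and it was read in 97.6% against 41.8% of cells, or 97.6% against 46.5% at equal depth. *SERPINA3* stood at 6557 against 170 CPM, a ratio of 38.5 (35.8 to 41.5), with medians over cells of 6565 and 119 CPM. Its class ranges overlapped only through the lowest *COL2A1*-only and the highest *COL1A1*-only cells, the latter reaching 1517 CPM.

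Reads of *SERPINA3* were found in 82.4% of *COL1A1*-only cells, but also in 32 of the 33 cells with neither collagen, at 127 CPM. Of the 16 cyFT cells with reads of at least 3 macrophage or pan-immune markers, 15 were among those 33, had *SERPINA3* reads in all 15 and stood at 105 CPM. The other one was *COL2A1*-only, and with it the 16 cells stood at 259 CPM, at a median depth of 46085.5 reads. The 170 CPM of *COL1A1*-only cells thus lay above the level of both sets without collagen reads, and whether such reads are free RNA or low expression was not tested. *SERPINA1* was found in 11 of the same 16 cells at 454 CPM, near its level in *COL1A1*-only cells. Whether its reads there are free RNA or expression was not tested. For *CHI3L1*, *CHI3L2*, *TF* and *CP* the 16 cells held 6.33, 0, 1.27 and 8.86 CPM, and they held 0.376% of all *CHI3L1* reads of cyFT.

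*CHI3L1* ran the other way, at 23.2 CPM in *COL2A1*-only and 201 CPM in *COL1A1*-only cells, 8.65 times lower in the former (7.05 to 10.7). The classes had similar shares of cells with a read, 45.2% and 38.8%, which went to 19.05% and 31.2% at equal depth. Among cells with a read, the median was 24.6 CPM in *COL2A1*-only and 137 CPM in *COL1A1*-only cells. The 33 cells with neither collagen were highest at 291 CPM, from 13 cells. *CHI3L2* followed the serpins with 153 against 50.6 CPM, a ratio of 3.03 (2.60 to 3.55), and was read in 36.9% against 7.06% of cells. It had 0 reads in the 33 cells with neither collagen.

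The metal-binding proteins also favoured the *COL2A1*-only cells. *TF* had 98 reads in 20 of the 84 cells against 3 reads in 3 of the 170, or 21.9 against 0.693 CPM, a ratio of 31.6 with a counting interval of 10.5 to 156. *CP* stood at 90.2 against 30.7 CPM, a ratio of 2.94 (2.407 to 3.598), in 44.0% against 12.4% of cells. For both genes the middle cell of either class had 0 reads, and 5 cells held 81.2% of the *CP* reads of the *COL1A1*-only class.

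**Figure D2:**
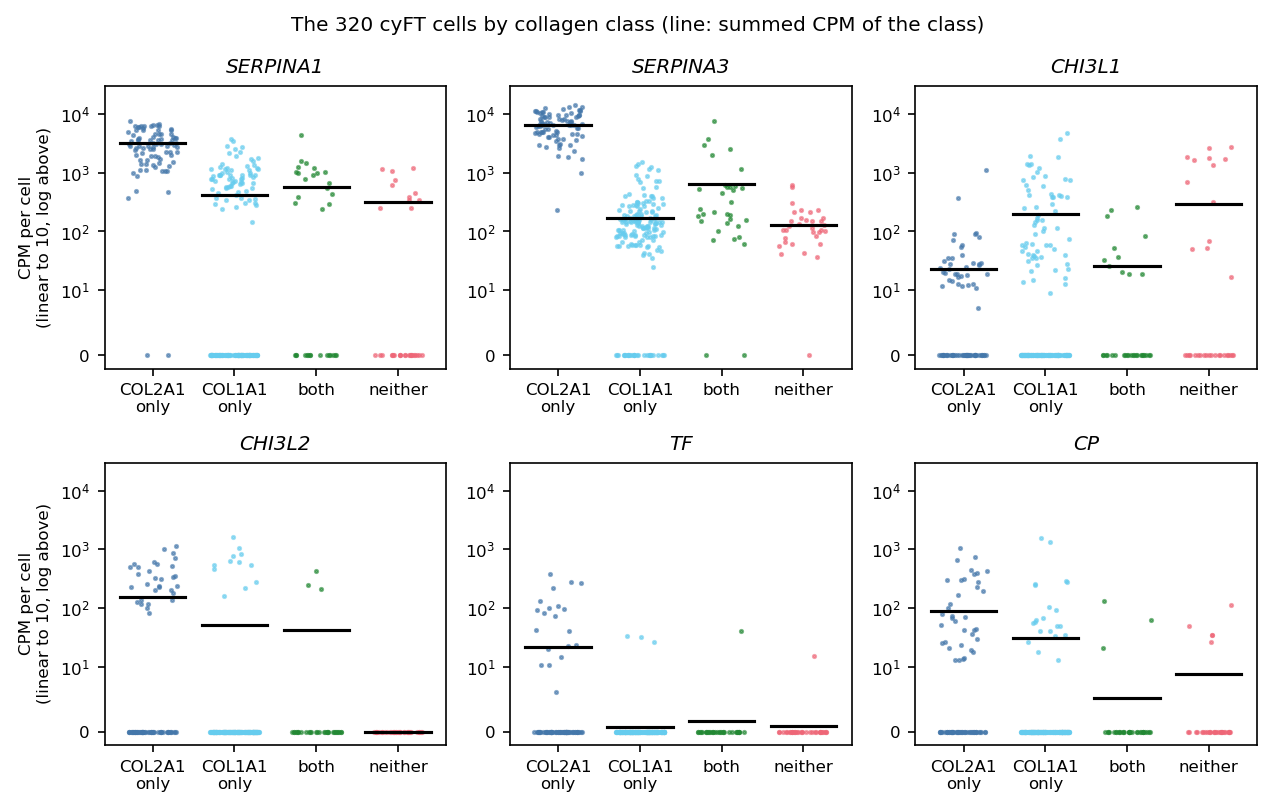
CPM per cell of the 6 listed genes in the 320 cyFT cells by collagen class, on an axis that is linear to 10 and logarithmic above, with 1 dot per cell and a black line at the summed CPM of the class. *SERPINA3* separates the 84 *COL2A1*-only cells, at 6557 CPM, from the 170 *COL1A1*-only cells, at 170 CPM, and *CHI3L1* is higher in *COL1A1*-only cells.

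On the log2 scale of CPM + 1, 5 of the 6 genes were at least 1 higher and 1 was at least 1 lower in *COL2A1*-only cells. A gene passed the filter on low values where at least 10 CPM of it were reached in either class and reads in at least 5% of cells in either class, the same or the other. Of the 7872 genes that passed, 11.0% were called higher and 21.8% lower at this size, and nothing is read from the gene counts here since this contrast was used to name the genes. The median log2 ratio was 2.26 over the 6 genes and -0.30 over all 7872. Relative to that median, *SERPINA3* lay 5.56, *TF* 4.06, *SERPINA1* 3.24, *CHI3L2* 1.88 and *CP* 1.82 log2 units above and *CHI3L1* at -2.76. Under edgeR's TMM factors, which bring the median of all genes to 0.01, 50.8% of the called genes were higher instead of 33.5%.

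**Figure D3:**
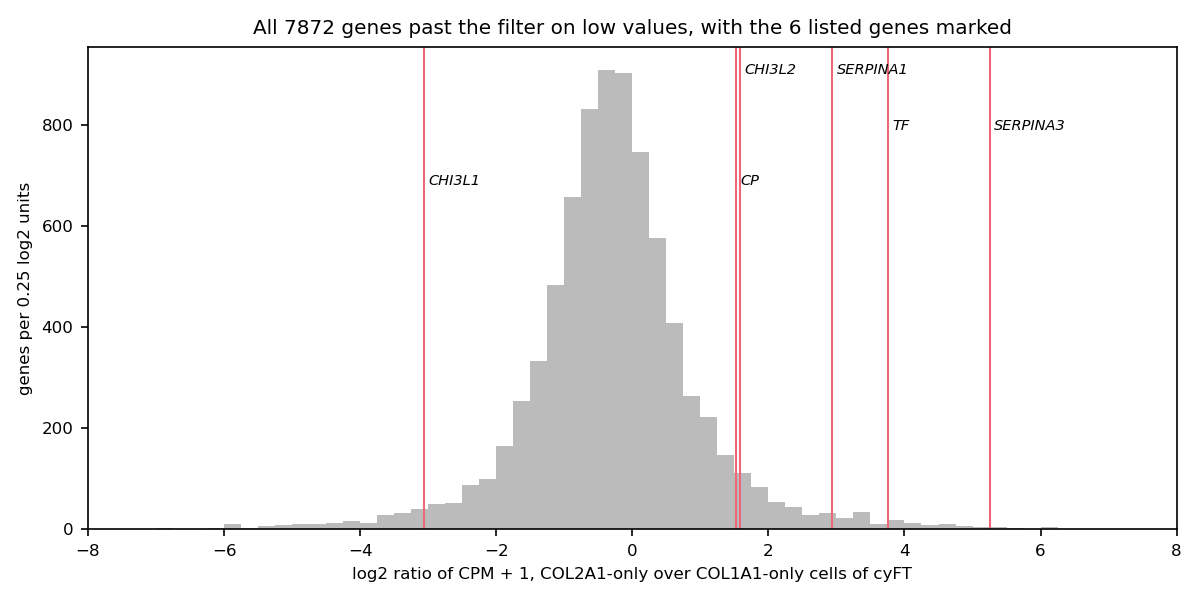
Number of genes by log2 ratio of CPM + 1 between *COL2A1*-only and *COL1A1*-only cyFT cells, over the 7872 genes past the filter on low values, with red lines at the 6 listed genes. *SERPINA3* at 5.26 and *TF* at 3.76 lie far to the right of the median of -0.30, and *CHI3L1* at -3.06 lies to the left.

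Cells often had reads of several of the genes. In the *COL2A1*-only class of cyFT the median cell had reads of 3.5 of the 6 genes, no cell had fewer than 2 and 3 cells had all 6. In the *COL1A1*-only class the median was 2, and 9 cells had none. *SERPINA3* was read in all 84 *COL2A1*-only cells and *SERPINA1* in 82 of them, which fixes their overlap, and *CHI3L1* and *CP*, read in 38 and 37 of these cells, were read together in 26. Across all 320 cyFT cells the Spearman correlation between the serpins was 0.52, and that of *SERPINA3* with *COL2A1* was 0.72, while *CHI3L1* stood at -0.08 with *SERPINA1*, 0.0050 with *SERPINA3* and 0.02 with *CHI3L2*. *CHI3L1* was at -0.05 with *COL2A1* and -0.10 with *COL1A1*, so its ranks over all cells did not follow its class difference in CPM. These are descriptions over cells of 1 library that share depth, with which the correlation was 0.45 for *SERPINA1*, 0.34 for *SERPINA3* and 0.10 for *CHI3L1*.

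Among 6773 genes with reads in at least 10% of cyFT cells, those most like *SERPINA1* over the 320 cells were *SERPINA2* (Spearman correlation 0.69), *CNMD*, which codes for the cartilage protein chondromodulin (0.69), and *FGFBP2*, an FGF-binding protein (0.63). For *SERPINA3* they were *CNMD* (0.72), *COL2A1* (0.72) and *FGFBP2* (0.70). *CP* came closest to *IBSP*, the bone sialoprotein (0.42), *RHOD* (0.34) and *ZNF385D* (0.33), and *CHI3L2* to *FOXA3* (0.43), *ASNS*, the asparagine synthetase (0.38), and *MFSD13A* (0.37). For *CHI3L1* the highest correlation was 0.24, with *ARHGEF10* (0.24), *HEG1* (0.23) and *IGFBP5* (0.23) first, and such weak values in sparse counts are no finding. *TF* was read in too few cells for this comparison.

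The same 2 classes were then compared in the samples whose class contrast had not been used to name the genes. The classes are not alike across samples, since fibroblast markers of *COL2A1*-only cells summed to 5771 CPM in cyAC, 59062 in post-transplant and 14984 in pre-transplant cyiPS-Cart, against 3503 in cyFT. Many genes differed by the called size there, with 24.1% higher and 24.2% lower in cyAC, 31.9% and 25.6% in post-transplant and 10.4% and 15.3% in pre-transplant cyiPS-Cart. With TMM factors 53.7% of called genes were higher instead of 40.4% in pre-transplant cells. In cyAC it was 58.6% instead of 49.9%, with the median going from -0.09 to 0.13. In post-transplant cells it was 64.65% instead of 55.5%, with the median going from 0.04 to 0.33. A filter of 50 CPM and 25% of cells gave 36.7% in post-transplant cells, so the balance of calls there depends on the setting. Of the listed genes past the filter, 3 of 6 were called higher (5 with TMM factors) and 1 lower in cyAC, 2 of 4 higher and 2 lower in post-transplant, and 2 of 4 higher and 1 lower in pre-transplant cells. *SERPINA3* was higher in *COL2A1*-only cells of each, at 5080 against 871 CPM in cyAC, 936 against 16.7 in post-transplant and 7249 against 1967 in pre-transplant cyiPS-Cart. *CHI3L1* was lower in each, at 109 against 1055 CPM in cyAC, 3.26 against 2071 in post-transplant and 820 against 2939 in pre-transplant cyiPS-Cart. In post-transplant cells it passed the filter only through the *COL1A1*-only class, where it was high, so that call supports nothing. The *COL1A1*-only classes were small, with 16, 7 and 19 cells against 276, 265 and 242, and a stricter filter on genes and mitochondrial share per cell keeps 12, 0 and 15 of them. The post-transplant class values thus rest on cells that this filter removes. A larger set of pre-transplant cells of the same library, which holds 300 of the same 320 cells, had 254 against 2588, and there *SERPINA3* stood at 7293 against 1723 CPM and *CHI3L1* at 831 against 3413. Of all genes past the filter, 90.1% in cyAC, 99.0% in post-transplant and 96.2% in pre-transplant cells had a lower ratio than *SERPINA3*, and 73.3, 82.5 and 98.6% had a lower ratio than *SERPINA1*.

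*SERPINA1* showed a called difference in post-transplant cells, at 3776 against 560 CPM, and in pre-transplant cells, at 2589 against 240 CPM, but in cyAC its 801 against 444 CPM was a log2 ratio of 0.85, under the size called. In cyAC the 444 CPM came from 4 of 16 cells. *TF* in cyAC had 233 reads in 25 *COL2A1*-only cells against 2 reads in 2 cells, a ratio of 6.18 (1.69 to 51.4). *CP* in cyAC stood at 168 against 47.5 CPM, a ratio of 3.53 (2.40 to 5.42), the latter from 2 cells. In post- and pre-transplant cells *CP* did not pass the filter on low values, with 155 and 81 reads in *COL2A1*-only cells and 0 in *COL1A1*-only cells.

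*CHI3L2* and *TF* had no common direction. The log2 ratio of *CHI3L2* was 0.91 in cyAC, 0.23 in pre-transplant and -3.62 in post-transplant cells, against 1.58 in cyFT. The post-transplant value rests on 107 reads in 4 of the 7 *COL1A1*-only cells. Without the 5 cells of each class with most of its reads it was 2.33. *TF*, higher in *COL2A1*-only cells of cyFT and cyAC, was under the filter in pre-transplant cells, at 24 reads in 4 *COL2A1*-only cells against 6 reads in 1 *COL1A1*-only cell, or 1.58 against 5.37 CPM. In post-transplant cells both classes had 0 reads of it.

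**Figure D4:**
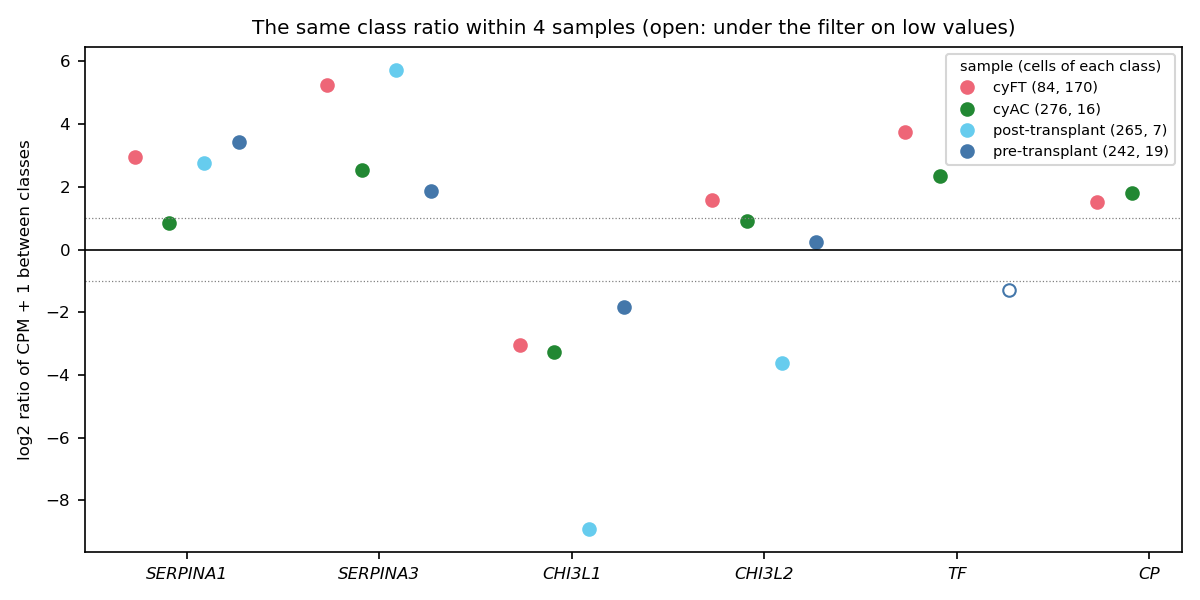
Log2 ratio of CPM + 1 between *COL2A1*-only and *COL1A1*-only cells of 4 samples, with 1 point per gene and sample, dotted lines at 1 and -1, and points left out where a class had 0 reads. *SERPINA3* lies above 1 and *CHI3L1* below -1 in all 4 samples, and *CHI3L2* ranges from 1.58 in cyFT to -3.62 in post-transplant cells.

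In cyAC the levels of the chitinase-like genes were highest in the 25 cells without reads of either collagen. *CHI3L1* reached 3216 CPM there, in 19 cells with 2777 of its 4498 reads. *CHI3L2* reached 1173 CPM, in 17 cells with 1013 of its 4178 reads, while 3022 lay in *COL2A1*-only cells. Reads of both genes were found in 16 of the 25 cells. Chondrocyte markers of these cells summed to 4212 CPM and fibroblast markers to 5909 CPM, and 1 of them had reads of at least 3 macrophage markers. In post-transplant cyiPS-Cart 6 of the 13 cells with *CHI3L1* were *COL1A1*-only, 4 had both collagens, 1 had neither and 2 were *COL2A1*-only. In pre-transplant cells the gene was by contrast widespread, being read in 170 of 242 *COL2A1*-only and 18 of 19 *COL1A1*-only cells.

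Fibrous tissue and articular cartilage were sequenced in 1 library and can be set side by side most directly. Of the 6 genes, 1 was called higher and 4 lower in cyFT than in cyAC, where 11.3% of 7804 genes were called higher and 3.92% lower. *SERPINA1* was 2.09 times higher (2.04 to 2.15), while *CHI3L2* was 4.11 times lower (3.83 to 4.41), *CHI3L1* 3.17 times (2.98 to 3.37), *CP* 3.01 times (2.73 to 3.32) and *TF* 2.24 times lower (1.77 to 2.84). *SERPINA3* was 1.66 times lower and was not called. *TF*, at a log2 ratio of -1.08, reached 10 CPM only in cyAC. It fell under the size called with a pseudocount of 10, without the 5 cells with most of its reads and without immune-marker cells. The median over all genes was 0.19, relative to which *SERPINA1* was 0.88 higher. With TMM factors, which bring that median close to 0, *SERPINA1* was at 0.88 and no longer called, and 59.1% of called genes were higher instead of 74.3%. In cyAC 42.7% of the *CHI3L1* reads lay in 12 cells that a stricter filter on cells removes, and without such cells the log2 ratio of *CHI3L1* was -0.98 instead of -1.66.

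These sums mix the cells of each tissue, so the *COL2A1*-only cells alone were compared, 84 of cyFT with 276 of cyAC. Among them 8.04% of 7497 genes were called higher and 7.80% lower in cyFT, and of the 6 genes 1 was higher and 1 lower. *SERPINA1* was 4.06 times higher (3.95 to 4.17), at 3251 against 801 CPM, and was read in 97.6% against 56.9% of cells. *CHI3L1* was 4.69 times lower (3.83 to 5.79), at 23.2 against 109 CPM. *SERPINA3* was at 6557 against 5080 CPM, and *TF* at 21.9 against 22.6 CPM, a ratio of 0.969 whose interval of 0.757 to 1.23 spans 1. Shares of cells were higher in cyFT for *TF* (23.8 against 9.06%), *CHI3L2* (36.9 against 27.2%) and *CP* (44.0 against 37.7%), at median depths of 47802.5 against 30768.5 reads, and no order is read from them since the CPM did not follow. *CHI3L2* and *CP* had log2 ratios of -0.93 and -0.89, which passed 1 in size when each cell was thinned to equal depth. This gave 3 lower genes, in a setting where 729 of all 7334 genes were lower. How many animals gave the cells of each class is not given in the sources used here.

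Transplantation went with lower *SERPINA3* and *CHI3L1*. Between post- and pre-transplant cyiPS-Cart, 8.86% of 7577 genes were called higher and 18.5% lower, and of the 5 genes past the filter 1 was called higher and 2 lower. *SERPINA3* was 7.28 times lower (7.18 to 7.38) and *CHI3L1* 18.3 times lower (17.4 to 19.1). *CHI3L1* reached the filter's 5% of cells only in pre-transplant cells, where it was higher. The log2 ratio of *CHI3L1* went from -4.17 to -6.25 without the 5 cells of each sample with most of its reads and to -6.92 under the stricter filter on cells, which kept 305 of 320 post-transplant cells. *SERPINA1* was 1.51 times higher (1.49 to 1.52), under the size called, and *CHI3L2* at a log2 ratio of -0.43. *CP* was 3.85 times higher (3.04 to 4.91), at 15.2 against 3.94 CPM, but in 20 against 19 cells. It reached 10 CPM only in post-transplant cells. Its call was lost with a pseudocount of 10, and it did not pass a filter of 50 CPM and 25% of cells. Against the larger set of pre-transplant cells, where *CP* stood at 6.51 CPM, its log2 ratio was 1.11. *TF* did not pass the filter, with 30 reads in 5 cells before and 0 after, and in the larger set of pre-transplant cells it stood at 0.616 CPM. The median over all genes was -0.25, relative to which *SERPINA3* lay at -2.61, *CHI3L1* at -3.91 and *CP* at 1.96. With TMM factors 49.5% of called genes were higher instead of 32.4%.

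Against articular cartilage, post-transplant cyiPS-Cart had more of 1 gene and less of the other 5. Of 7594 genes 10.6% were called higher and 15.7% lower, with a median of -0.08. *SERPINA1* was 4.59 times higher (4.49 to 4.69). *CHI3L2* was 23.1 times lower (21.0 to 25.5), *CP* 9.89 times (8.92 to 11.0), *CHI3L1* 5.95 times (5.64 to 6.28) and *SERPINA3* 5.43 times lower (5.36 to 5.52). *TF* had 0 reads against 248. Both *TF* and *CHI3L1* reached the 5% of cells of the filter only in cyAC, where they were higher. The log2 ratio of *CHI3L1*, -2.55 with all cells, was -3.86 without the 5 cells of each sample with most of its reads and -4.57 under the stricter filter.

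Undifferentiated cyiPSC and pre-transplant cyiPS-Cart shared a library. Of 8588 genes 16.7% were called higher and 38.3% lower in pre-transplant cyiPS-Cart, with a median of -0.64. The 4 listed genes past the filter were called higher, but each passed only through pre-transplant cells. In cyiPSC they were under 10 CPM and in under 5% of cells, so the direction of this count was nearly fixed and it supports nothing. The log2 ratios were 9.60 for *SERPINA3*, 9.37 for *SERPINA1*, 7.63 for *CHI3L1* and 3.77 for *CHI3L2*, or 10.2, 10.0, 8.27 and 4.41 relative to that median. *TF* and *CP* were under the filter, at 1.41 against 0.154 and 3.94 against 0.830 CPM. With TMM factors 52.9% of called genes were higher instead of 30.3%.

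Other genes of the same pathways were taken as lists and set against the collagen classes of cyFT, where the background was 11.0% higher and 21.8% lower with a median of -0.30. Of 25 other acute-phase proteins 13 were listed and only *AGT* passed the filter. *AGT*, which codes for angiotensinogen, was called higher in *COL2A1*-only cells at 193 against 3.93 CPM. Of 26 complement genes 16 were listed and 7 passed, with 0 higher and 2 lower and a median of -0.31. The lower ones were *C2*, a serine protease of the classical pathway, at 5.80 against 91.9 CPM, and *CFI*, the protease that inactivates C3b and C4b, at 7.14 against 18.0 CPM. For *CFI* the share of cells ran the other way, at 7.14% against 4.71%, so no order is read from it. *C1S* and *CD55*, the next by size, had log2 ratios of -0.68 and 0.53.

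Of 31 regulators of the interleukin-6 family and NF-kB 24 were listed and 17 passed, with 4 higher and 3 lower and a median of -0.09. *LIF* stood at 522 against 15.2 CPM and *IL11* at 396 against 16.4 CPM, both cytokines that signal through gp130, and the LIF receptor gene *LIFR* at 21.2 against 3.00 CPM. *NFKBIA*, the inhibitor of NF-kB, was lower at 48.7 against 311 CPM. Of 21 genes of iron and copper handling 18 were listed and 13 passed, with 3 higher and 2 lower and a median of -0.23. The transferrin receptor gene *TFRC* stood at 225 against 91.2 CPM and the iron importer gene *SLC11A2* at 164 against 30.3 CPM. The iron exporter gene *SLC40A1* was lower at 27.0 against 137 CPM, and *TFR2* at 4.02 against 15.7 CPM.

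Of 14 other serpin genes 13 were listed and 11 passed, with 5 higher and 1 lower and a median of 0.66. *SERPINA5*, the protein C inhibitor and a neighbour of *SERPINA3*, stood at 137 against 8.78 CPM, *SERPINE2* at 460 against 191 CPM and *SERPINI1* at 35.3 against 11.8 CPM. *SERPINF1*, which codes for the antiangiogenic factor PEDF, was lower at 4.69 against 248 CPM. Of 19 genes of endoplasmic reticulum stress 17 were listed and passed, with 4 higher and 0 lower and a median of 0.47. The chaperone gene *HSPA5* stood at 8799 against 1024 CPM, *PDIA4* at 583 against 186 CPM, *SDF2L1* at 28.6 against 10.4 CPM and *TRIB3* at 10.5 against 3.70 CPM.

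In *COL2A1*-only cells of cyFT over those of cyAC, where 8.04% of all genes were higher and 7.80% lower with a median of -0.03, the endoplasmic reticulum stress genes had 4 of 17 higher and 0 lower, with a median of 0.71. The interleukin-6 and NF-kB regulators had 1 of 17 higher and 5 lower, with a median of -0.64. The 5 were *NFKB1*, *NFKB2*, *RELB*, *NFKBIA* and *NFKBIZ*, which are named after their values were seen. Of the iron and copper genes 2 of 12 were higher and 1 lower (median 0.21), and of the other serpins 2 of 11 were higher and 1 lower (median -0.10). Of 5 complement genes 0 were called in either direction (median -0.79), and of 2 acute-phase genes 1 was higher and 1 lower.

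In post-transplant cyiPS-Cart over cyAC, where 10.6% of all genes were higher and 15.7% lower with a median of -0.08, the interleukin-6 and NF-kB regulators had 0 of 17 higher and 11 lower, with a median of -1.22. The other serpins had 1 of 11 higher and 6 lower (median -1.17), and the complement genes 2 of 7 higher and 3 lower (median -0.84). The iron and copper genes had 3 of 14 higher and 1 lower, the endoplasmic reticulum stress genes 1 of 16 higher and 1 lower (median -0.18), and the acute-phase genes 1 of 2 higher and 1 lower.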

How the data were processed

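Read counts per gene and cell were deposited in 2 matrices, one of cyiPSC with 3527 pre-transplant cells and one of 320 cells each of 4 samples, with 300 pre-transplant cells in both. The authors made the counts by assigning reads with Bowtie2 to cDNA and ncRNA of Ensembl Macaca_fascicularis_6.0, split pooled samples by hashtag, zeroed what a mixture model took for diffused RNA in high genes, and removed cells with many mitochondrial reads. The submitters' processing notes name cutadapt 3.4, Bowtie2 2.4.2 and R 3.6.3. No counting of molecular identifiers is described. Doublets were not called here, and no clusters were made. Cells were assigned by the prefix of their names, and the 3 hashtag libraries were not used.

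Reads were summed over cells and given per 1000000 reads of all listed genes. Shares have Clopper-Pearson, sums Poisson and ratios conditional exact 95% intervals. A share of 0 has the limit that 3 counts allow. Genes with at least 10 CPM in either group and reads in at least 5% of cells of either group, not necessarily the same one, passed, and a log2 ratio of CPM + 1 of at least 1 in size was called. No test was run, as each condition had 1 sample. In simulated counts of the cyFT classes over 7872 genes, 100% of 200 changed genes and 0.0261% of the others were called. These shares hold for the simulated counts only. How often a call is wrong in the real counts, where 5 cells can hold most reads of a gene, was not tested. The genes, lists, markers and rules were chosen with earlier results of these data known. Named were the 8 genes, up to 4 genes of each list with the largest ratio between the cyFT classes, and the 3 genes most alike. Lists held other acute-phase proteins, complement, interleukin-6 and NF-kB regulators, iron and copper handling, other serpins and endoplasmic reticulum stress, and 11 marker lists were counted. A search of promoters for motifs was planned and not run, as no promoter sequences were used here. Of the symbols, 94.9% were found in the RefSeq table. Alternatives changed detection, depth, cell weighting, totals, pseudocount, filters and cells. TMM factors came from edgeR 4.0.16 in R 4.3.3, other steps from Python 3.11.15 with numpy 2.4.6, pandas 2.3.3 and scipy 1.17.1.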

Additional observations from a re-analysis of the deposited data

Results flagged for a closer look

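*CHI3L2* had opposite class ratios in 2 samples. In cyFT the log2 ratio of *COL2A1*-only over *COL1A1*-only cells was 1.58, and in post-transplant cyiPS-Cart it was -3.62. Each condition was 1 sample, so the difference was not tested, and the post-transplant value rests on 7 *COL1A1*-only cells. That value reversed without the 5 cells of each class with most of its reads, and the stricter cell filter kept 0 of the 7 cells. The opposite direction is therefore not secure.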

How the results depend on the processing

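For 37 called log2 ratios of the 6 genes, 349 values were recomputed under the alternatives. Of these 1 reversed, 118 others left the counting interval of the main value, and 7, from 4 of the ratios, fell under a size of 1. The counting intervals thus do not cover choices of processing. The reversed one was *CHI3L2* between the post-transplant classes, at 2.33 without the 5 cells of each class with most of its reads, which leaves 2 of 7 cells. In cyFT over cyAC, *SERPINA1* fell to 0.83 by the mean of per-cell CPM and 0.88 by TMM factors, so that the number of genes called higher went from 1 to 0 in both settings. Over all genes 883 of 7804 were higher in the main setting, 1059 of 7859 by the mean and 629 of 7771 by TMM factors. There *CHI3L1* went to -0.98 under the stricter cell filter (no fewer than 500 genes, mitochondrial share within 3 median absolute deviations of the sample's median on the high side), and *TF* to -0.68 both with a pseudocount of 10 and without the 5 cells with most of its reads, and to -0.9998, short of the size called, without cells with immune markers. In *COL2A1*-only cells of cyFT over cyAC the genes called lower went from 1 to 3 by the mean of per-cell CPM and by thinning. Over all genes 585 of 7497 were lower in the main setting, 655 of 7513 by the mean and 729 of 7334 by thinning. The stricter filter kept 0 of the 7 *COL1A1*-only post-transplant cells and gave no value there. Between the classes of cyAC the genes called higher went from 3 to 5 with TMM factors and under the stricter cell filter. Over all genes 1889 of 7836 were higher in the main setting, 2216 of 7906 with TMM factors and 2094 of 7796 under that filter. Between the classes of pre-transplant cells the genes called lower went from 1 to 2 without a filter. Over all genes lower calls there went from 1173 of 7651 to 1576 of 14020. Between post- and pre-transplant cyiPS-Cart the genes called higher went from 1 to 0 with a pseudocount of 10, where *CP* was at 0.85, and with a filter of 50 CPM and 25% of cells. Over all genes 671 of 7577 were higher in the main setting, 392 of 7577 with that pseudocount and 279 of 3421 with that filter. Leaving out immune-marker cells, or cyiPSC cells with collagen reads, was chosen after seeing the data. Over all genes, calls between the cyFT classes went from 864 higher and 1718 lower to 535 and 1031 with a pseudocount of 10, 1480 and 2579 without a filter, and 405 and 591 with the stricter one. Calls from cyiPSC to pre-transplant cells went from 1430 and 3289 to 2085 and 1853 with TMM factors. No paired analysis was possible because each condition was 1 sample.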

Other observations

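*AGT*, the 1 other acute-phase gene that passed the filter between the collagen classes of cyFT, had levels of 3.85 CPM in cyiPSC, 2226 in pre-transplant cyiPS-Cart, 190 in post-transplant cyiPS-Cart, 10.6 in cyAC and 81.7 in cyFT. It was read in 88.1% of pre-transplant cells and 4.69% of cyAC cells, so that, unlike *SERPINA3*, it stood lowest among the tissues in articular cartilage.

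The gp130 cytokine genes differed in where they stood highest. *LIF* was at 4.29 CPM in cyiPSC, 90.4 in pre-transplant, 70.8 in post-transplant, 628 in cyAC and 240 in cyFT. *IL11* was at 3.58, 237, 53.5, 74.6 and 172 CPM in the same order of samples. *HSPA5* was highest in cyFT at 4153 CPM and lowest in post-transplant cyiPS-Cart at 450 CPM. All of these are values of 1 sample per condition and were not tested.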
